A study of Brassica napus with 6 samples.

Results

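The calmodulin-like, calmodulin-binding and CDPK family described here holds the Brassica napus genes whose Arabidopsis description names a calmodulin-like protein, a calmodulin-binding protein or a calcium-dependent protein kinase (CDPK, gene symbol CPK), except the matches of AT5G26920 and AT1G73805. It counts 223 of the 145279 genes in the table and falls into 128 CDPK genes, 65 calmodulin-binding genes and 30 calmodulin-like genes. They match 54 Arabidopsis genes, with 2 to 9 Brassica copies for each. Of the 30 Arabidopsis genes in the CDPK class 27 are CPK genes. AT1G49580, AT3G49370 and AT5G24430 are not on the list of CPK genes and are counted there by their description. Plants read a rise in cytosolic calcium with proteins that bind the ion through EF-hands. Calmodulin-like proteins (CML) are sensors that pass the signal on by binding other proteins, and calcium-dependent protein kinases carry the sensor and the kinase in a single chain. Calmodulin-binding proteins are the targets, among them the CBP60 family of transcription factors in immunity and the kinesin ZWICHEL (ZWI), a motor that trichomes of Arabidopsis need for branching.

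The plants were near-isogenic doubled haploids of this allotetraploid, whose A and C subgenomes give most genes several copies. DH6-47, called hairy here, bears about 600 trichomes on a leaf, and DH6-110 is glabrous. The original parents were Quantum/LG3260 and CN113136, each line is a single doubled haploid, and the labels name no treatment beyond growth at 16 h light and 8 h dark. The comparison asks which genes differ while trichome cells are being set up, in poly-A RNA from single leaves taken very early in their growth at the same leaf position. The labels list 3 leaves per line; leaves 1 and 3 of each line are used here and leaf 2 was not analysed here, so that 2 leaves are set against 2.

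The values are TPM, transcript abundances corrected for length and scaled to a common total. Columns summed to between 954250 and 962645 TPM, the read depth is unknown, and 39919 to 43209 genes reached 1 TPM in a leaf. Whole leaves were used, so fewer cells of a type and less RNA per cell cannot be told apart. The marker genes of leaf mesophyll were abundant, with 4228 to 5138 TPM in all in the hairy and 6768 to 9473 TPM in the glabrous leaves, although RBCS1A read 0 to 2.03 TPM under its own match. Each of the 5 mesophyll sums tested had a log2 change below 0 with 0 called by limma and 1 at an unadjusted p below 0.05, and their part in the results was not tested. Markers of shoot meristem summed to at most 0.379 TPM and those of root to at most 0.269 TPM. The 4 trichome markers GL1, GL2, GL3 and TTG2 summed to 28.5 and 22.6 TPM in the hairy against 11.5 and 15.2 TPM in the glabrous leaves. Of them 0 were called by limma and 2, GL2 and TTG2, were higher at an unadjusted p below 0.05, while GL1 and GL3 overlapped between the lines.

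As a whole the family was more abundant in the hairy leaves, at 1937 and 1617 TPM for hairy leaves 1 and 3, against 843 and 1280 TPM for glabrous leaves 1 and 3. The CDPK genes made up most of this, with 1176 and 852 TPM in the hairy and 439 and 642 TPM in the glabrous leaves. Both hairy leaves were above both glabrous leaves for the CDPK total. With copies added up, the same held for 10 of 18 tested CDPK genes, and for 17.3% of all tested sums. CPK32 and CPK28 held a large part of the CDPK total. CPK32 read 247 and 191 TPM in the hairy against 32.5 and 33.1 TPM in the glabrous leaves. CPK28 read 274 and 154 against 39.4 and 71.3 TPM. The total therefore does not speak for each gene. The calmodulin-binding genes overlapped between the lines, at 520 and 329 TPM against 214 and 398 TPM. The calmodulin-like genes read 241 and 437 TPM in the hairy against 189 and 241 TPM in the glabrous leaves, so that hairy 1 and glabrous 3 were close together.

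Not every copy was detected. Of the 223 genes, 70 were listed at 0 in all 4 leaves, and another 48 stayed below the level needed for a test, which was 1 TPM in at least 2 leaves. For 7 of the 54 Arabidopsis genes every copy was at 0, among them CPK18, CPK19, CPK20, CPK24, CPK25 and CPK27. The copies of CPK17 and CPK34, kinases of the Arabidopsis pollen tube, summed to at most 0.571 TPM and 1.21 TPM in a leaf. The filter keeps a gene that is high in a single line, so the members that passed it are not a neutral sample of the family.

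The lines were compared per copy and, after adding up its copies, per Arabidopsis gene, both in a limma fit over the whole table on log2(TPM + 1). The family was picked with results from these leaves known, so its counts are a description beside the background and not evidence that it stands apart. Of 105 tested copies, 15 were called higher in the hairy line and 4 were called lower, with an adjusted p below 0.05 as the limit. Among all 44247 tested genes 5.24% were called higher and 4.48% lower, 9.72% in all. The log2 change was above 0 for 84 of the 105 copies and for 52.8% of all tested genes. It was above 0 for only 69 of 115 copies without hairy 1 and 66 of 116 without glabrous 1. The median over all tested genes also fell in those fits, to -0.13 and -0.17. Of the copies, 8 of 54 CDPK, 2 of 35 calmodulin-binding and 5 of 16 calmodulin-like copies were called higher. The median log2 change was 0.43 over the tested members and 0.03 over all tested genes. The number called higher was 3 without hairy 1, 6 without hairy 3, 4 without glabrous 1 and 13 without glabrous 3, and the number called lower was 2 in each of these fits. Of all genes tested in these fits 3.02%, 3.04%, 5.53% and 8.14% were called in either direction.

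After adding up copies, 38 of the 54 Arabidopsis genes could be tested. Of these sums 3 were called higher, namely CPK32, CPK28 and CML42, and 0 were called lower, against 1.81% and 0.266% of all 15765 tested sums, or 2.08% in all. At an unadjusted p under 0.05 in the same limma fit, 8 were higher and 0 lower. The share of all tested sums at that limit was not counted. The log2 change was above 0 for 34 of the 38 sums, compared with 52.7% of all tested sums. In 18 of the 38 both hairy leaves were above both glabrous leaves, compared with 17.3% of all tested sums, and the reverse order was met in 0 of the 38, compared with 12.4%. The number called higher was 1 without hairy 1, 3 without hairy 3, 4 without glabrous 1 and 6 without glabrous 3, where 0.853%, 0.859%, 3.72% and 4.09% of all tested sums were called in either direction. Sums above 0 numbered 27 of 42 without hairy 1 and 23 of 42 without glabrous 1. The median over all tested sums was -0.15 and -0.20 in those fits, against 0.02 with all leaves.

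**Figure D1:**
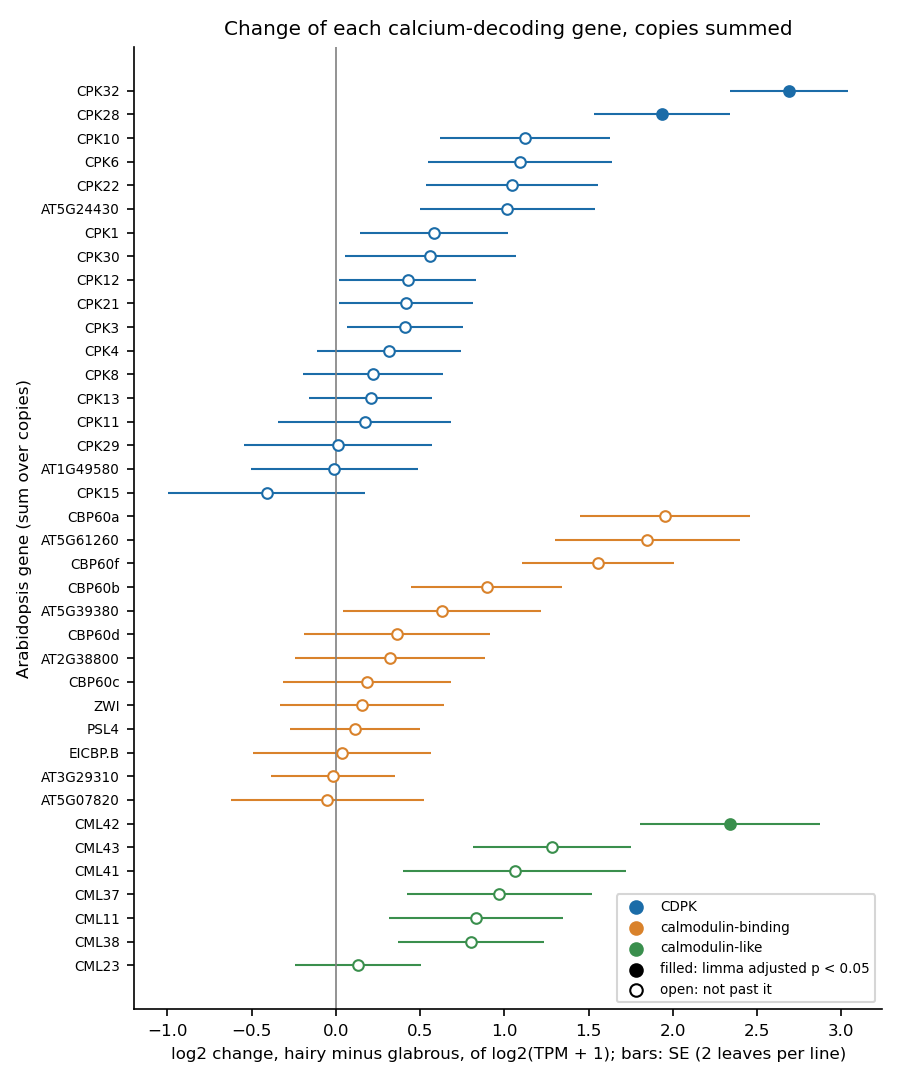
Log2 change, hairy minus glabrous, of each of the 38 Arabidopsis genes that could be tested after adding up copies, with its SE over 2 leaves per line on the horizontal axis and the genes grouped by class on the vertical axis. CPK32 at 2.69, CML42 at 2.34 and CPK28 at 1.93 are the filled points that passed the threshold, and most open points lie to the right of 0.

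CPK32 was the kinase with the widest gap between the lines. In Arabidopsis CPK32 takes part in nitrate signalling together with its close relatives CPK10 and CPK30. Its copies summed to 247 and 191 TPM in the hairy leaves and to 32.5 and 33.1 TPM in the glabrous leaves. That is 219 ± 39.9 against 32.8 ± 0.46 TPM (mean ± SD, n = 2 leaves per line), a 6.67-fold difference and a log2 change of 2.69 (SE 0.35, limma adjusted p = 8.57e-04). The call was kept in 13 of 13 alternative fits, including each fit with 1 leaf left out.

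Each of the 4 tested copies of CPK32 was called higher, and the groups did not overlap in any of them. The A09 copy (BnaA09g081980.4DH) was the most abundant, at 96.0 and 76.2 TPM against 18.3 and 16.7 TPM. The C08 copy (BnaC08g059180.4DH) read 81.3 and 64.5 TPM in the hairy leaves and 9.42 and 7.89 TPM in the glabrous leaves, with a log2 change of 2.93 (SE 0.37, limma adjusted p = 2.64e-04). The copy on C06 (BnaC06g037710.4DH) read 46.5 and 27.8 against 2.81 and 6.99 TPM, and the one on A07 (BnaA07g029810.4DH) 23.1 and 22.2 against 1.91 and 1.55 TPM. The log2 changes of these copies were 2.74 and 3.12, the latter the largest of the 4 by a margin under its SE of 0.45. Copies of the A subgenome gave 49.7% of the CPK32 transcripts in the hairy and 58.7% in the glabrous line. Without hairy 1 the A07 copy missed the threshold (adjusted p = 0.0503), and the C06 copy did so without hairy 1 or without glabrous 1 (0.13 and 0.0617).

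The relatives of CPK32 lay in the same direction without passing the threshold. CPK10 read 28.3 and 21.9 TPM in the hairy and 7.44 and 15.7 TPM in the glabrous leaves (log2 change 1.12, SE 0.50, limma adjusted p = 0.556). CPK30, a weakly expressed gene here, read 5.03 and 4.39 against 2.48 and 3.29 TPM. In both genes the hairy leaves were above the glabrous leaves, but neither difference passed over the whole table.

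CPK28 was the other kinase whose sum passed. In Arabidopsis it limits immune signalling by promoting the turnover of the receptor-associated kinase BIK1. It summed to 274 and 154 TPM for the hairy leaves and to 39.4 and 71.3 TPM for the glabrous leaves, so that the groups were apart while each line's leaves also differed from each other. The means were 214 ± 85.1 and 55.3 ± 22.6 TPM, a 3.87-fold difference (log2 change 1.93, SE 0.40, limma adjusted p = 0.0218). Without hairy 1 the log2 change was 1.52 and the call was lost (adjusted p = 0.398).

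Of 8 CPK28 copies 5 could be tested and 3 were called higher. The A07 copy (BnaA07g023940.4DH) read 87.4 and 52.2 TPM in the hairy and 9.80 and 15.2 TPM in the glabrous leaves (log2 change 2.37, SE 0.40, limma adjusted p = 0.00204), a call that was lost without hairy 1 (0.0989) or without glabrous 1 (0.0574). The C07 copy (BnaC07g038570.4DH) was about as abundant, at 89.2 and 51.9 against 14.3 and 20.9 TPM, and the C09 copy (BnaC09g013010.4DH) read 45.8 and 24.7 against 6.04 and 11.6 TPM. The A09 copy, at 45.1 and 20.0 against 8.58 and 17.0 TPM, did not pass, with glabrous 3 close to hairy 3. The A04 copy (BnaA04g008540.4DH) was at 6.68 and 4.70 TPM in the hairy leaves, 0 in glabrous 1 and 5.75 TPM in glabrous 3, which made it the member with the widest gap between leaves of a line.

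**Figure D2:**
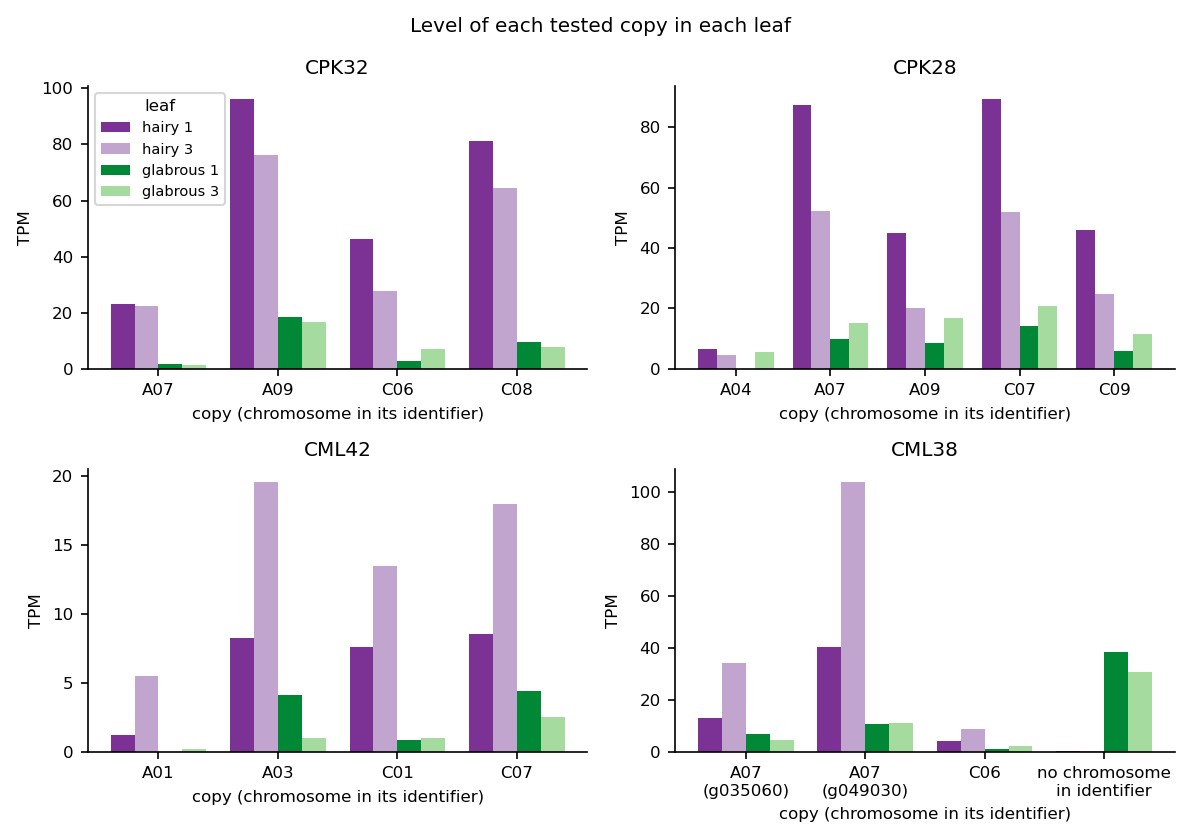
TPM of each tested copy of CPK32, CPK28, CML42 and CML38 (vertical axes) by the chromosome named in the copy's identifier (horizontal axes), with 1 bar per leaf. The CPK32 and CML42 copies are all higher in both hairy leaves, whereas the CML38 copy without a chromosome name reads 38.5 and 30.7 TPM in the glabrous and at most 0.177 TPM in the hairy leaves.

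Of the 18 CDPK sums tested, the other 16 were not called. CPK3, which acts in guard cells and salt responses, was among the most abundant, with 157 and 133 TPM in the hairy and 98.8 and 119 TPM in the glabrous leaves (log2 change 0.41, SE 0.34, adjusted p = 1.00). CPK13 read 128 and 89.8 against 76.7 and 112 TPM, and CPK8 97.8 and 64.7 against 46.8 and 98.9 TPM. In both of these genes the lines overlapped. CPK21, an activator of guard cell anion channels, was steady between leaves, at 39.9 TPM in both hairy leaves and 28.5 and 30.8 TPM in the glabrous leaves, with a log2 change of 0.42 that did not pass. CPK4 and CPK11, kinases of abscisic acid signalling, had log2 changes of 0.32 and 0.17. CPK6, a kinase of the immune oxidative burst, was low, at 5.48 and 4.94 against 0.905 and 3.44 TPM (log2 change 1.09, adjusted p = 0.69). Over the 44 CDPK copies that were tested and not called, log2 changes ran from -1.17 to 1.35.

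Single copies of CPK22 and CPK1 were called in opposite directions. The C09 copy of CPK22 (BnaC09g039770.4DH) read 5.50 and 6.46 TPM in the hairy and 0.401 and 0.588 TPM in the glabrous leaves (log2 change 2.22, SE 0.45, limma adjusted p = 0.00673). Its A09 copy was at 1.46 and 0.407 against 2.43 and 2.25 TPM, and the sum of the gene did not pass. CPK1 takes part in Arabidopsis in cell death triggered by immune receptors, and its A03 copy (BnaA03g002080.4DH) was lower in the hairy line, at 1.24 and 0.769 against 4.10 and 6.92 TPM (-1.68, SE 0.48, adjusted p = 0.047). That call was lost in 7 of 12 alternative fits, including each of the 4 with a leaf left out. The other tested CPK1 copies had log2 changes above 0, and the sum read 45.7 and 31.6 against 19.6 and 32.0 TPM.

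Among the calmodulin-like genes CML42 stood at the head. In Arabidopsis CML42 is expressed in trichomes, where its loss adds branches, and it restrains jasmonate-dependent defence. Its copies summed to 25.9 TPM in hairy 1 and 57.8 TPM in hairy 3, and to 9.54 TPM in glabrous 1 and 4.85 TPM in glabrous 3. The hairy leaves were above the glabrous leaves but differed from each other by more than the glabrous leaves' whole level. The means were 41.8 ± 22.5 and 7.19 ± 3.32 TPM, a 5.82-fold difference (log2 change 2.34, SE 0.53, limma adjusted p = 0.0351). The call was lost in 7 of 13 alternative fits, among them those without hairy 1 (2.90, adjusted p = 0.0531) and without hairy 3 (1.78, adjusted p = 1.00), while the log2 change stayed between 1.78 and 2.90.

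Of 9 CML42 copies 4 were expressed well enough for a test, and 3 of them were called higher. The C01 copy (BnaC01g016150.4DH) read 7.62 and 13.5 TPM in the hairy and 0.878 and 1.00 TPM in the glabrous leaves (log2 change 2.53, SE 0.49, limma adjusted p = 0.00518), with the call lost without hairy 1, hairy 3 or glabrous 1 (0.0635, 0.158 and 0.0714). The A03 copy (BnaA03g053790.4DH) read 8.27 and 19.6 against 4.15 and 0.975 TPM, and the A01 copy (BnaA01g012880.4DH) 1.18 and 5.51 against 0 and 0.184 TPM. The C07 copy, at 8.58 and 18.0 against 4.41 and 2.54 TPM, missed the threshold (adjusted p = 0.0754). In each of the 4 copies hairy 3 was above hairy 1. CML43, the nearest relative of CML42, was low, at 1.19 and 2.62 against 0 and 0.343 TPM.

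ZWI, the kinesin-like calmodulin-binding protein of trichome branching, did not follow CML42. Its 4 copies summed to 44.1 and 23.0 TPM in the hairy and 19.8 and 41.1 TPM in the glabrous leaves, so that the lines overlapped (log2 change 0.15, SE 0.48, limma adjusted p = 1.00). The copies ranged from -1.03 to 0.67 on the log2 scale and none passed.

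CML38, a stress-inducible sensor that gathers in RNA granules under low oxygen in Arabidopsis, showed copies moving apart. An A07 copy (BnaA07g049030.4DH) read 40.3 and 104 TPM in the hairy against 10.6 and 10.9 TPM in the glabrous leaves (log2 change 2.48, SE 0.45, limma adjusted p = 0.0032). A further A07 copy (BnaA07g035060.4DH) read 13.0 and 34.2 against 6.74 and 4.46 TPM and was also called higher. A copy whose identifier names no chromosome (BnaS00025g0540.4DH) went the other way, at 0.177 and 0.138 TPM in the hairy and 38.5 and 30.7 TPM in the glabrous leaves (-4.93, SE 0.47, adjusted p = 4.81e-05). This copy held 65.8% of the CML38 transcripts in the glabrous line. As a result the sum read 57.7 and 147 against 56.9 and 48.2 TPM, and hairy 1 was level with glabrous 1 (log2 change 0.80, adjusted p = 0.779). The call of the first A07 copy was lost without hairy 3 (1.81, adjusted p = 0.165) or without glabrous 1 (2.46, adjusted p = 0.0927).

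CML23 was the most abundant of the 7 calmodulin-like genes that the selection matches. Of its 2 copies 1 was called lower, while its total was not called. CML23 acts in Arabidopsis in nitric oxide balance and flowering time. The C06 copy (BnaC06g053860.4DH) was listed at 0 in both hairy leaves and read 44.8 and 69.2 TPM in the glabrous leaves (limma adjusted p = 1.73e-05). The A07 copy (BnaA07g040090.4DH) read 106 and 158 TPM in the hairy against 50.2 and 77.4 TPM in the glabrous leaves and was not called (adjusted p = 0.18). Their sum was 106 and 158 against 95.0 and 147 TPM, a log2 change of 0.13 (SE 0.37, adjusted p = 1.00).

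The same arrangement was met in 2 CDPK genes with a copy on A07 and a copy on C06. The C06 copy of CPK29 (BnaC06g065330.4DH) was listed at 0 in both hairy leaves and read 1.03 and 3.20 TPM in the glabrous leaves (limma adjusted p = 0.0415). With its A07 copy the total was 5.21 and 2.39 against 2.26 and 5.34 TPM, so that the lines overlapped. The C06 copy of CPK30 (BnaC06g064140.4DH) was also at 0 in the hairy leaves, against 1.33 and 1.18 TPM, and did not pass (adjusted p = 0.0643). The neighbourhood of these copies was itself mostly lower: of the 50 nearest tested genes by identifier, 74% were called lower around the CML23 copy, 98% around the CPK29 copy and 90% around the CPK30 copy. Around the 3 A07 partners 0% were called lower. The C06 copies of CPK32 and CML38, which were present in the hairy leaves, carry lower identifier numbers on the same chromosome.

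**Figure D3:**
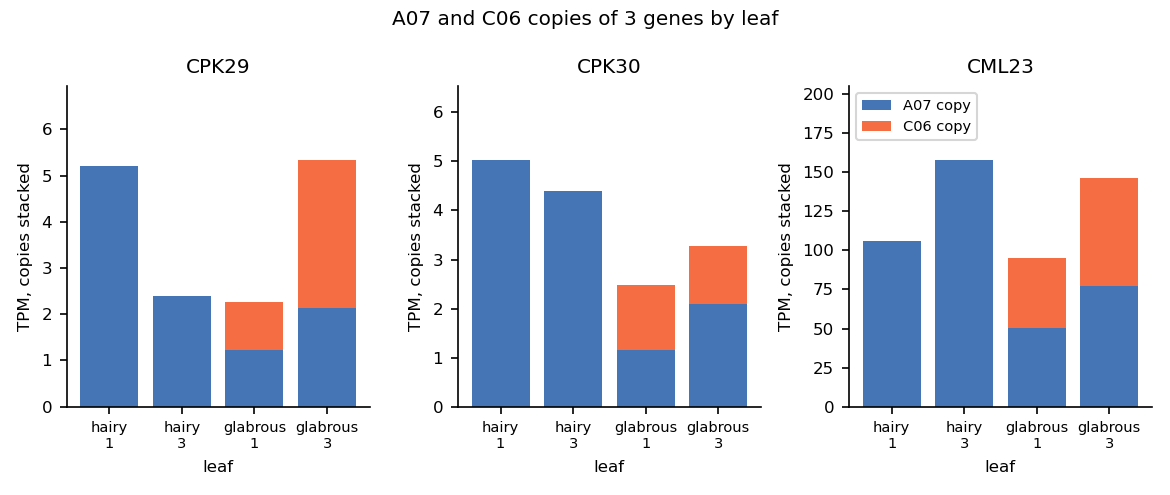
TPM (vertical axes) of the A07 and C06 copies of CPK29, CPK30 and CML23, stacked, in each leaf (horizontal axes). The hairy leaves have no C06 part, and for CML23 the stacked totals of 106 and 158 TPM in the hairy and 95.0 and 147 TPM in the glabrous leaves overlap.

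The copies called higher had fewer called neighbours. This share counts called genes only, so neighbours that shift without passing, as the A07 copy of CML23 did, are not seen in it. By identifier number, the CML38 copy BnaA07g049030.4DH comes after the A07 copy of CPK29 (BnaA07g048270.4DH). For 14 of the 15 the identifier names a chromosome, and between 0% and 14% of their 50 nearest tested genes were called in either direction. Of the 4 copies called lower, 3 lay where at least 20% of the neighbours were called, and for the other the identifier names no chromosome. Over all tested genes, 40.8% of the called genes lay in such a neighbourhood.

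The calmodulin-like genes without a called copy were CML37, CML11, CML41 and CML43. CML37, a wound-induced sensor that promotes jasmonate defence in Arabidopsis, read 28.1 and 49.0 TPM in the hairy and 9.88 and 33.9 TPM in the glabrous leaves. Glabrous 3 was therefore above hairy 1, and the log2 change of 0.97 had an SE of 0.55. CML41, which acts at plasmodesmata during bacterial perception, read 8.14 and 4.38 against 6.09 and 0.594 TPM, also with overlap. CML11 read 14.3 and 18.5 against 11.9 and 6.31 TPM, with no overlap and an adjusted p of 0.928.

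In the calmodulin-binding class 0 of the 13 tested sums were called at an adjusted p below 0.05 in limma, against 2.08% of all tested sums. At an unadjusted p below 0.05 in limma, 3 sums were higher and 0 lower, again without a share over all tested sums. Of the 35 tested copies 2 were called, both higher. That is 5.71%, against 9.72% of all tested genes called either way and 5.24% called higher. The matches of AT5G26920 and AT1G73805 were left out of the selection, so these counts do not cover them. CBP60a, a member of the CBP60 family that dampens immunity in Arabidopsis, read 118 and 57.3 TPM for the hairy leaves and 12.2 and 33.8 TPM for the glabrous leaves. The groups did not overlap, and the log2 change of 1.95 (SE 0.51) came to an adjusted p of 0.0679 in limma. Its A06 copy (BnaA06g060220.4DH) was called higher, at 69.5 and 35.2 against 3.36 and 16.5 TPM (2.53, SE 0.59, adjusted p = 0.0153). That call was lost without hairy 1 (0.312), without hairy 3 (0.0843) and without glabrous 1 (1.53 on the log2 scale, 0.183). The C03 copy read 48.4 and 22.1 against 8.88 and 17.4 TPM and did not pass.

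CBP60b, which Arabidopsis needs for the expression of immune regulators, read 79.4 and 49.3 TPM in the hairy and 22.5 and 48.7 TPM in the glabrous leaves, where glabrous 3 came within 1 TPM of hairy 3. CBP60f was barely expressed, at 2.54 and 1.80 against 0.0356 and 0.104 TPM (log2 change 1.56, adjusted p = 0.117). CBP60c, at 55.4 and 32.5 against 21.9 and 63.0 TPM, overlapped between the lines. A copy of AT5G61260, a gene described only as related to calmodulin-binding proteins, read 11.4 and 10.6 TPM in the hairy and 0.0952 and 0.14 TPM in the glabrous leaves (BnaS00008g0050.4DH, 3.43, SE 0.46, adjusted p = 4.19e-04). This call held in 13 of 13 alternative fits, and the identifier names no chromosome. With the A02 copy added, which was below the glabrous level in the hairy leaves at 1.39 and 0.572 against 1.43 and 3.99 TPM, the sum did not pass (1.85, adjusted p = 0.134).

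AT3G29310 and PSL4, the calmodulin-binding genes with the highest means over all leaves, were level between the lines. In the hairy line alone CBP60a and CBP60b averaged more, at 87.6 and 64.4 TPM. AT3G29310 read 72.2 and 53.0 TPM in the hairy and 61.8 and 63.4 TPM in the glabrous leaves, and its mean was 62.6 TPM in each line. PSL4, the beta subunit of glucosidase II in the endoplasmic reticulum, read 74.6 and 52.1 against 47.6 and 69.7 TPM (log2 change 0.11, SE 0.39). EICBP.B, a calmodulin-binding transcription activator at a lower level, read 19.1 and 12.1 against 9.74 and 22.4 TPM.

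The leaves of a line differed from each other in a way that depended on the class. Glabrous 1 was below glabrous 3 in 46 of 54 CDPK copies and 33 of 35 calmodulin-binding copies, with medians of -0.63 and -0.92 on the log2 scale, but in 9 of 16 calmodulin-like copies (median -0.07). Over all tested genes this order was met in 70.9%, with a median of -0.39. Hairy 1 was above hairy 3 in 48 of 54 CDPK and 34 of 35 calmodulin-binding copies, against 68.8% of all tested genes. In the calmodulin-like class it was above in 4 of 16, with a median of -0.66. The median over all tested members was 0.13 without glabrous 1 and 0.79 without glabrous 3, while that over all tested genes was -0.17 and 0.24. What sets the leaves apart was not tested.

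**Figure D4:**
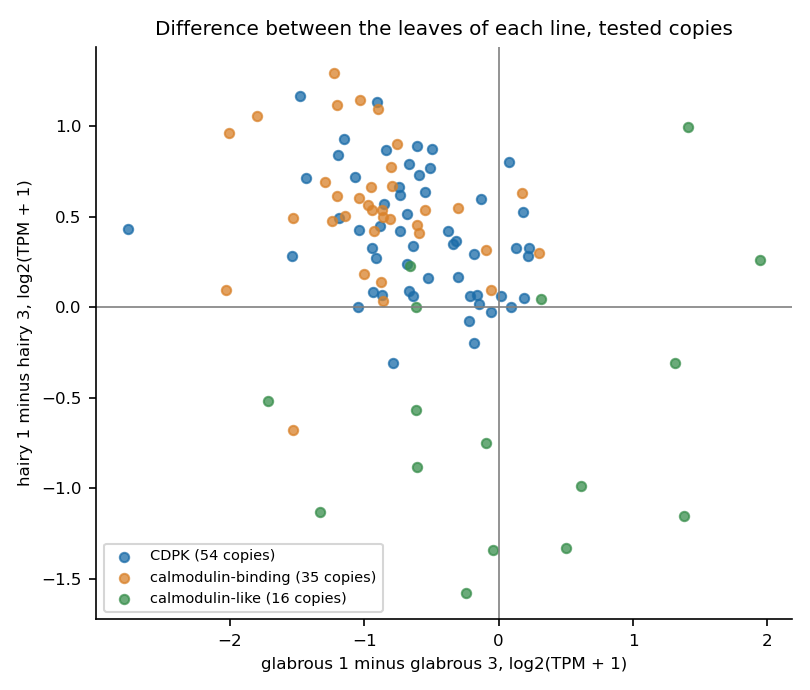
Difference between the leaves of the hairy line (hairy 1 minus hairy 3, vertical axis) against that of the glabrous line (glabrous 1 minus glabrous 3, horizontal axis) on the log2(TPM + 1) scale, with 1 point for each of the 105 tested copies. CDPK and calmodulin-binding copies gather at the upper left, and 12 of the 16 calmodulin-like copies lie at or below 0 on the vertical axis.

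Some kinases of the same family have descriptions that the selection does not match, because they are called calmodulin-domain protein kinases. Of the 34 Arabidopsis CPK genes 27 were members and 4 others were in the table. CPK9 was called higher, at 144 and 92.0 TPM in the hairy against 16.1 and 23.1 TPM in the glabrous leaves (AT3G20410, log2 change 2.52, limma adjusted p = 0.004). CPK5, a kinase of the immune oxidative burst, read 234 and 206 against 85.8 and 93.0 TPM without passing (AT4G35310, 1.29, adjusted p = 0.0767). The lines overlapped for CPK2 (AT3G10660), at 10.5 and 6.05 against 2.38 and 6.09 TPM, and for CPK7 (AT5G12480), at 65.0 and 43.2 against 42.5 and 53.4 TPM, and neither was called. Over the whole CPK list 12 of 60 tested copies were called higher and 3 lower, against 5.24% and 4.48% of all tested genes. Of its 20 tested sums 3 were higher and 0 lower, against 1.81% and 0.266% of all tested sums.

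Other parts of the calcium pathway were read from lists of Arabidopsis genes. Beside their counts stand the shares over all tested genes, 5.24% called higher and 4.48% lower. Over all tested sums these shares were 1.81% and 0.266%. The calmodulins themselves were abundant, with 1388 and 2070 TPM in the hairy and 1277 and 919 TPM in the glabrous leaves. Hairy 3 was above hairy 1 for them, as in the calmodulin-like class. Of their 24 tested copies 4 were called higher and 1 lower, and 0 of 3 sums passed in limma, with 0 at an unadjusted p below 0.05. In the CBL family, sensors that steer another group of kinases, 3 of 22 copies were higher and 0 lower. Of its 6 tested sums 1 passed, CBL1 (AT4G17615), at 64.9 and 64.2 against 14.9 and 14.5 TPM (2.06, limma adjusted p = 0.0149).

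Calcium pumps and channels remove the ion from the cytosol or let it in. Of 26 tested copies of the autoinhibited calcium pumps 4 were higher and 0 lower, and 1 of 8 tested sums passed. That sum was ACA1 (AT1G27770), at 84.5 and 44.1 against 11.6 and 12.8 TPM (2.24, limma adjusted p = 0.0174). Of 25 tested copies of cyclic nucleotide-gated channels 3 were higher and 0 lower, and 1 of 11 tested sums passed. This was CNGC3 (AT2G46430), at 19.5 and 9.78 against 0.994 and 2.31 TPM (2.53, limma adjusted p = 0.03). The CAMTA transcription activators, of which EICBP.B is a member, had 0 copies higher and 1 lower of 21, and 0 of 6 sums passed, with 1 at an unadjusted p below 0.05 in limma.

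Genes that touch, wounding and elicitors induce in Arabidopsis were also often called higher in the hairy line. Hairy 3 was above hairy 1 for this list and below it for the family. Of 48 tested copies of 10 such genes 29 were called higher and 1 lower, against 5.24% and 4.48% of all tested genes. Of their 10 sums 5 were called higher and 0 lower, against 1.81% and 0.266% of all tested sums. The summed level was 6398 and 7370 TPM in the hairy against 1899 and 3043 TPM in the glabrous leaves. MPK3 (AT3G45640), a kinase of early immune signalling, read 366 and 388 against 52.5 and 125 TPM (2.20, limma adjusted p = 0.0103). Markers of stomatal lineage summed to 105 and 78.2 TPM in the hairy against 116 and 164 TPM in the glabrous leaves, and those of xylem and phloem to 47.8 and 34.2 against 47.9 and 122 TPM. Each of these lists had 0 copies called higher and 1 called lower, and 0 of their sums passed in limma, with 2 stomatal and 1 vascular sum at an unadjusted p below 0.05. The part of these gene groups in the differences of the calcium genes was not tested.

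Copies could also differ in which transcript model they used. Of 31 members with several models and at least 5 TPM in each line, 8 had a different most abundant model in the hairy and in the glabrous line. The share over all genes was not counted. Some were near ties, such as the C02 copy of AT3G29310 (BnaC02g073140.4DH). Its main model held 57.3% in the hairy and 50.7% in the glabrous line. The clearest of the 8 was the A09 copy of CPK12 (BnaA09g007050.4DH). There the second model held 96.3% of the copy's transcripts in the hairy line and the first model 100% in the glabrous line. In the authors' deposited table both models passed a false discovery rate of 0.05, the first lower (0.0343) and the second higher (0.0076) in the hairy line. The copy's total, at 16.9 and 16.0 against 5.39 and 10.6 TPM, was not called.

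In the authors' deposited table, which tests single transcripts, 12 member transcripts were higher and 3 lower at a false discovery rate under 0.05, of 213 with a value. Over all genes, 1596 transcripts were higher and 1627 lower in the authors' deposited table, of 79668 with a value. Those 15 transcripts belong to 14 genes, among them each of the 4 tested copies of CPK32 and the copies of CPK28 on A07, C07 and C09. No CML42 transcript passed there.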

How the data were processed

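Per the labels, poly-A RNA of single leaves was sequenced as paired ends; the submitters' processing notes name cutadapt 1.9. Which aligner, annotation and build were used is not given in the sources used here. Leaf 2 of each line was not analysed here. The authors deposited TPM per transcript and leaf, their mean TPM per line, the larger mean as a signal on the TPM scale, a signed fold change (a score below 0 where the hairy line is lower), its log2 value, and a p-value with its false discovery rate, whose test is not stated. The table holds no read counts, so depth is unknown and precision rests on 2 leaves per line.

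TPM were summed per gene (185771 transcript models) and, separately, over genes sharing a TAIR code. A gene that reached 1 TPM in 2 or more leaves was tested with limma 3.58.1 (R 4.3.3), with log2(TPM + 1) as the response, a trended variance, robust moderation and p-values adjusted by Benjamini-Hochberg over all tested genes. Changes were also simulated, in far fewer genes than were called here. There the fit recovered few of the changes at a log2 of 2 and most of the larger ones. That recovery does not describe these data. With 2 leaves per line, a gene that was not called may still differ between the lines. Tables were handled in Python 3.11.15 with pandas 2.3.3. P-values measure the spread between single leaves. Counts at an unadjusted limma p below 0.05 have no share over all tested genes or sums beside them.

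Members and lists were chosen with earlier results of these data known. A member's class follows its description; CPK12, described as a calmodulin-like domain kinase, was placed with the CDPK genes after its description was seen. CBP60 letters were added from general knowledge, not from the table. Chromosomes are those in the gene identifiers. Named by rule were the largest called sums and the most abundant sums of each class, up to 8 called copies each way whose lines do not overlap and whose higher mean is 5 TPM or more, genes with copies called both ways, and the 3 widest gaps between leaves of a line among members at 5 TPM or more in either leaf. Other members were named after their values were seen. How reads shared by near-identical copies were assigned is unknown, so levels of single copies are uncertain to that extent. Of the members, 5 have transcripts with differing TAIR entries.

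Alternatives were each leaf left out (limma then takes the lone leaf of a line to vary like the others, and the filter asks for 1 leaf), a replicate block, pseudocounts of 0.1 and 0.5, no filter or a filter of 5 TPM, quantile and TMM-like scaling, plain variance shrinkage, and fits per transcript or on the most abundant transcript. A crossed pairing and a count outside dense neighbourhoods were added after seeing the data.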

Additional observations from a re-analysis of the deposited data

How the results depend on the processing

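The median log2 change of the tested members stayed above 0 in all 14 alternatives, from 0.13 without glabrous 1 to 0.79 without glabrous 3. Leaving out each leaf in turn gave 3 to 13 member copies called higher and 2 called lower, and 1 to 6 sums called higher. These fits hold fewer leaves. Of the 19 copies called with all leaves, some recurred in each (5 without hairy 1, 8 without hairy 3, 6 without glabrous 1 and 14 without glabrous 3). A fit per transcript called 9 genes higher and 2 lower, and the 5 TPM filter gave 2 lower. Plain variance shrinkage called 1 sum higher. Outside neighbourhoods with at least 20% called genes, 0 copies were called lower and 14 higher. The causes were not tested. The replicate numbers are shared by the lines, but deviations of hairy 1 and glabrous 1 from their line means correlated at r = -0.407 across 44247 genes, which are not independent, so the numbers were not taken as pairs. With the replicate number as a block 13 copies were higher and 3 lower, 2 sums were higher, and the call of the CML42 sum was lost (adjusted p = 0.153), as was that of the CPK1 copy on A03 (0.177). The crossed pairing as a block gave 27 copies and 8 sums higher, and 5 copies lower. No called sum or copy among those named by the rule changed direction under the alternatives run for it; the other called copies were followed only through the counts.

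With quantile and TMM-like scaling 32 of 38 sums were above 0, and the median of all tested sums was -0.05 and -0.03. With no filter the calls of the CPK28 sum (0.0836), the CML42 sum (0.1) and the CBP60a copy on A06 (0.0606) were lost. Levels near 1 TPM, as for CPK29 and CPK30, are limited by a depth that the files do not give.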
